A study of Homo sapiens with 183 samples.

Results

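RUVBL1 knockout in CFPAC-1 cells was described across all expressed genes. CFPAC-1 is an established human pancreatic ductal adenocarcinoma (PDAC) line, used here as a derivative that expresses Cas9. The members were the 4 libraries labelled sgRUVBL1, set against 4 libraries labelled sgRosa, out of 17 CFPAC-1 libraries and 183 samples in the series, and they were chosen by label. All cells were transduced with a lentiviral vector that carried 1 single guide RNA (sgRNA) and puromycin resistance, and RNA was taken on day 5. The sgRosa guides cut the ROSA26 locus, so these cells carried Cas9, a cut and the selection but no targeted gene. The paper lists more than 1 ROSA26 guide. Beside them stood 2 sgRUVBL2, 3 sgKLF5, 2 sgCDK1 and 2 sgRpa3 libraries. The labels do not say which RUVBL1 or ROSA26 guide each library carries, nor whether libraries came from separate cultures. The p-values therefore measure the spread between these libraries, which may be technical. Each library was made from a pool of transduced cells, so a level is an average over cells with different edits.

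RUVBL1 and RUVBL2 are related AAA+ ATPases that assemble with each other into a ring. The ring is a core part of chromatin remodellers (INO80, SRCAP and TIP60/p400), and with RPAP3 and PIH1D1 it forms the R2TP co-chaperone, which works with HSP90 to build small nucleolar ribonucleoproteins, RNA polymerases and the PIKK kinases such as mTOR and ATM. In PDAC cells, KLF5 is a transcription factor of the epithelial state, and the question that the design poses is what loss of RUVBL1 does to the transcripts that depend on KLF5 and to other genes.

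Transcript levels were given as TPM (a level per transcript length, scaled to the library total, so that levels of different genes can be compared), and differences as log2 fold changes of TPM + 1 with the standard error (SE) from limma. An adjusted p below 0.05 (limma with Benjamini-Hochberg adjustment over all genes tested) was taken as a change, and "fell" or "rose" is used for such changes only. Each library held 12386 to 13094 genes at 1 TPM or more. Of 10 markers of pancreatic duct epithelium, 9 had a mean of 1 TPM or more, among them KRT7, KRT8, KRT18, KRT19 and EPCAM. CFTR, at 0 to 1.04 TPM in sgRosa and 0 to 0.27 TPM in sgRUVBL1, was below that on average. Of 7 islet markers, none had such a mean (INS, GCG and SST were at 0 in all libraries), and of 6 acinar markers in the table CELA3A alone did (PNLIP and PTF1A were at 0 in all libraries). Such a mean was also reached by 3 of 9 fibroblast markers (COL1A1, LUM and ACTA2). It was reached by 3 of 8 immune markers (PTPRC, CD14 and CD68) and 1 of 6 endothelial markers (KDR). The immune markers summed to 138 to 171 TPM in sgRosa and 107 to 148 TPM in sgRUVBL1.

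Several libraries stood apart from their label. The library labelled sgRosa replicate 2 was closest to the sgKLF5 libraries, with a Pearson correlation across genes of 0.988 to 0.989, against 0.977 to 0.982 with the other sgRosa libraries. SERPINB5, a serpin of epithelial cells that the study uses as a reporter of KLF5 activity, was at 59.8 TPM there, at 57.5, 69.3 and 66 TPM in sgKLF5 and at 169 to 192 TPM in the other sgRosa libraries. For sgRUVBL1 against sgRosa, the counts of genes and of list members that fell or rose are therefore given with and without it, as are the called genes whose values in the samples are printed and any other gene for which its removal changed the call or moved the log2 fold change by over 1.5 times. The library labelled sgRosa replicate 4 was as close to sgRUVBL1 (0.977 to 0.989) and sgRUVBL2 (0.987 to 0.988) as to the other sgRosa libraries (0.977 to 0.987), and it shared low levels of some long transcripts with them. The libraries labelled sgCDK1 held CDK1 at 194 and 207 TPM, against 206 to 236 TPM in sgRosa, and no gene passed against sgRosa (limma, 0 calls or 0.00%, 1477 genes at an unadjusted p below 0.05). In the libraries labelled sgRpa3, CDK1 was at 81 and 92 TPM. RPA3 was at 30.3 and 31.7 TPM there and as low, at 27.9 and 32.6 TPM, in the libraries labelled sgCDK1, against 33.2 to 45.7 TPM in sgRosa. CDK1 was thus low under the sgRpa3 label and not under its own, and whether these labels are exchanged was not tested.

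The targeted gene was low in all 4 knockout libraries. RUVBL1 (GRCh38 chromosome 3, 128064778-128153914, minus strand, 11 exons in the transcript used) was at 151, 175, 159 and 162 TPM in sgRosa and 37.2, 41.8, 53.7 and 42.6 TPM in sgRUVBL1, here and below in the order of replicates 1 to 4. The groups did not overlap, and the knockout libraries held 27.1% of the control mean (log2 fold change -1.87 ± 0.09, adjusted p = 1.60e-09, exact two-sided permutation test p = 0.02857, the smallest p that 4 against 4 allows). The reads of a cut gene can still be counted, so the level that remained is no measure of the protein. RUVBL2 (chromosome 19, 48993562-49015970, plus strand), the partner in the ring, was at 184, 199, 194 and 163 TPM in sgRosa and 178, 179.9, 204 and 178 TPM in sgRUVBL1. These groups overlapped and had means of 185 and 185 TPM (0.001 ± 0.09, adjusted p = 0.994). KLF5 (chromosome 13, 73054976-73077541, plus strand) was at 206, 193, 199 and 169 TPM in sgRosa and 115, 139, 124.8 and 140.4 TPM in sgRUVBL1. All knockout libraries lay below all controls, and KLF5 fell (log2 fold change -0.56 ± 0.08, adjusted p = 1.35e-04), also without sgRosa replicate 2, where the difference was -0.56 (adjusted p = 3.72e-04). In the sgKLF5 libraries KLF5 was at 131.5, 139 and 162 TPM. RUVBL1 had a log2 fold change of -1.83 without sgRosa replicate 2 (adjusted p = 7.55e-09).

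**Figure D1:**
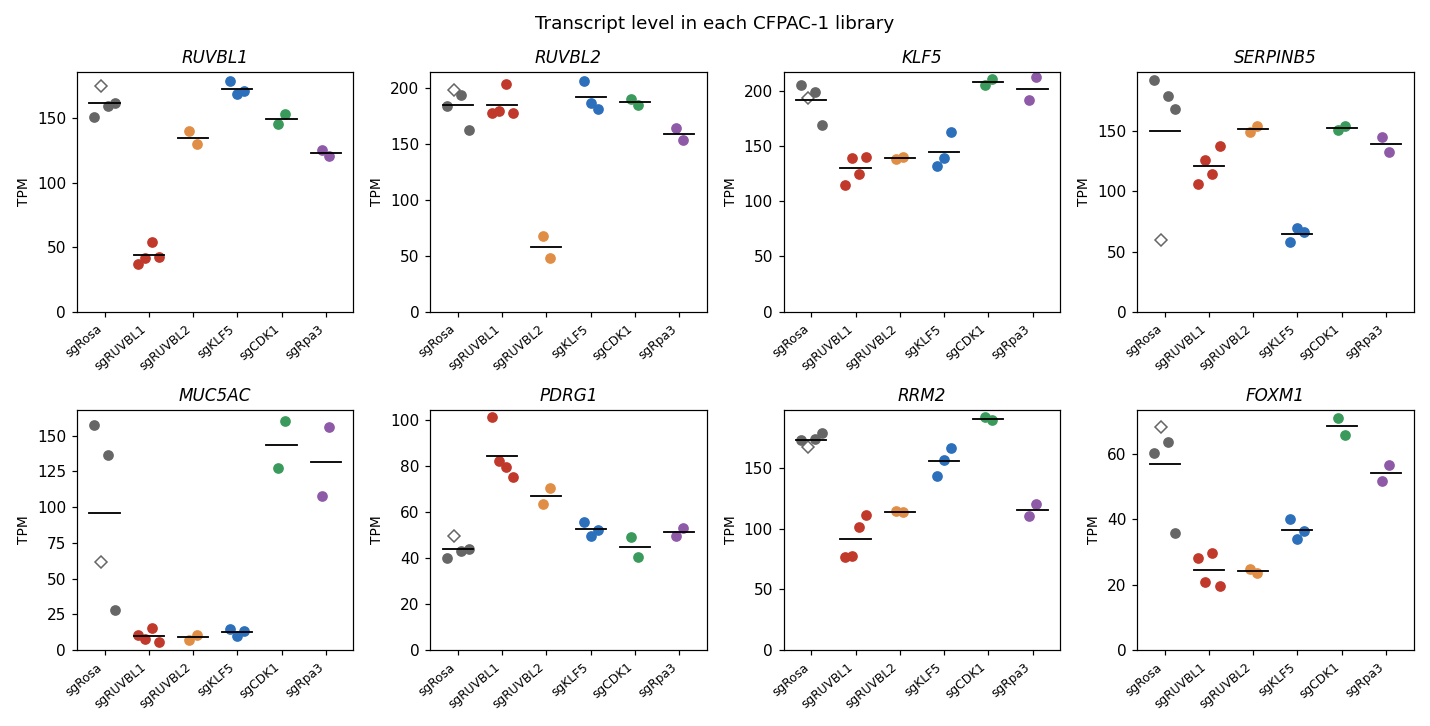
TPM (y axis) of 8 genes in each of the 17 CFPAC-1 libraries by group, with 1 point per library, a line at each group mean and an open diamond for sgRosa replicate 2. RUVBL1 is lowest in the 4 sgRUVBL1 libraries and RUVBL2 in the 2 sgRUVBL2 libraries, and the diamond lies with sgKLF5 for SERPINB5.

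With TPM as deposited, more genes were lower than higher under RUVBL1 knockout. Of 12748 genes tested, 4750 (37.3%) fell and 834 (6.54%) rose, and without sgRosa replicate 2 these were 4363 (34.2%) and 805 (6.32%) of 12744, with 4055 of the first 4750 and 704 of the 834 called again. The groups did not overlap for 3324 lower (26.1%) and 658 higher (5.16%) genes, and without sgRosa replicate 2 for 3826 (30.0%) and 826 (6.48%). Over all of these genes, the log2 fold change had a median of -0.20. Under a median-of-ratios scaling, which sets the median gene to no change, 2152 genes fell and 2440 rose, so the sign of small changes depends on the scaling, and the lists below are read against this median.

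The falls went with transcript length. Genes that fell had a median transcript length of 4353 nt, those that rose 1544 nt and the rest 2834 nt. Among 797 genes under 1000 nt the median log2 fold change was 0.15, and among 1032 genes of 8000 nt or longer it was -0.45. Per library, the slope of log2 level on length was -0.21, -0.03, -0.13 and -0.07 per doubling of length in sgRUVBL1 replicates 1 to 4, relative to the mean of all CFPAC-1 libraries, and 0.09, 0.07, 0.08 and 0.002 in sgRosa. The groups did not overlap (difference -0.17, exact permutation test p = 0.02857, the smallest that 4 against 4 allows), and without sgRosa replicate 2 the difference was -0.17 (exact p = 0.0571). Slopes were also below 0 in sgRUVBL2 (-0.043 and -0.032) and sgKLF5 (-0.075 to -0.027), and were 0.089 to 0.116 under the sgCDK1 and sgRpa3 labels. In AsPC-1 experiment 2 the order was that of CFPAC-1, with sgRUVBL1 at -0.08 to -0.022 and sgRosa at -0.011 to 0.084. It was reversed in T3M-4, and the groups overlapped in AsPC-1 experiment 3 and BxPC-3. Values were therefore also given after a correction in which each library's trend on length and GC content was removed, an alternative chosen after seeing the data. With it, 1876 genes (15.1%) fell and 2118 (17%) rose of 12449 with a length, and without sgRosa replicate 2 these were 1732 (13.9%) and 2014 (16.2%) of 12446. Of the 4750 genes that fell, 1791 (37.7%) also fell after the correction, and 16 were called in the opposite direction, whereas 677 (81.2%) of the 834 that rose did so again. The cause of the length trend was not tested.

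**Figure D2:**
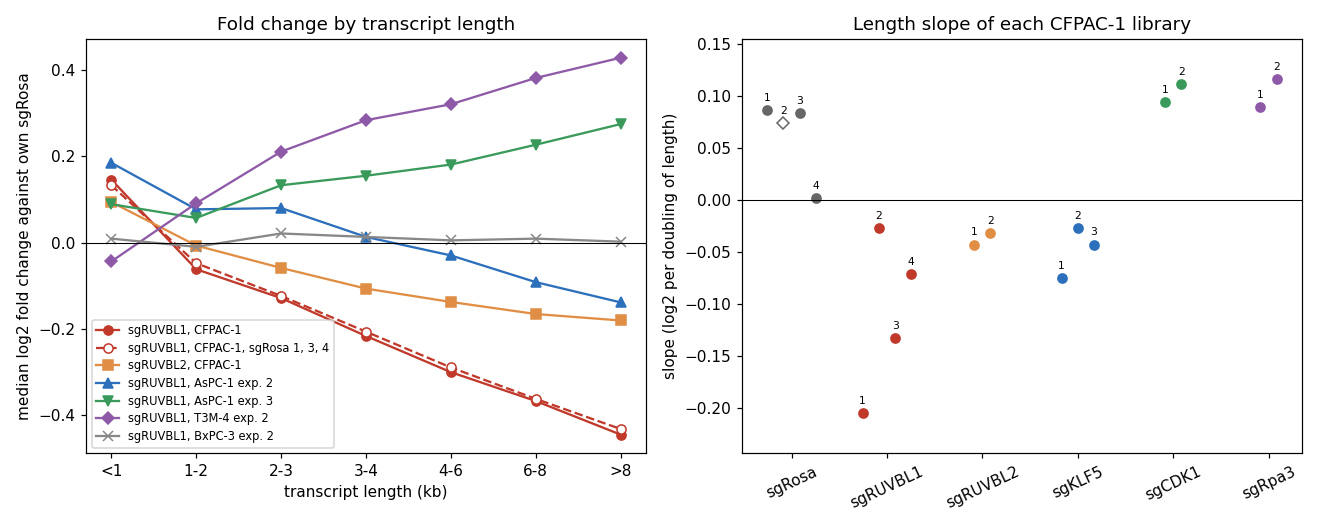
Left, median log2 fold change of sgRUVBL1 (or sgRUVBL2) against its own sgRosa libraries by transcript length in kb, for CFPAC-1 and the other lines. Right, slope of log2 level on length (log2 per doubling) in each CFPAC-1 library, with replicate numbers. In CFPAC-1 the median goes from 0.15 in the shortest bin to -0.45 in the longest, and all 4 sgRUVBL1 slopes are below all sgRosa slopes.

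The largest fall was that of MUC5AC, a gel-forming mucin of the classical PDAC programme (GRCh38 chromosome 11, 1157953-1201138, plus strand). It was at 157, 61.7, 136 and 27.8 TPM in sgRosa and 10.3, 7.47, 15.7 and 5.62 TPM in sgRUVBL1 (log2 fold change -2.96 ± 0.41, adjusted p = 8.80e-05), and the levels of the controls varied widely. The groups did not overlap, which the choice of the largest falls and rises required of every gene given as such. After the correction the difference was -2.29 (adjusted p = 5.21e-04). HSPG2, the basement membrane proteoglycan perlecan, was at 253, 216, 274 and 100.5 TPM in sgRosa and 38.4, 52.5, 60.6 and 43.8 TPM in sgRUVBL1. No library of one group reached the other, and HSPG2 fell (-2.01 ± 0.23, adjusted p = 3.88e-05). IL34, a cytokine that signals through the CSF1 receptor, was at 13.8, 7.55, 15.3 and 3.77 TPM in sgRosa and 1.63, 1.88, 2.28 and 1.87 TPM in sgRUVBL1 and fell (-1.78 ± 0.28, adjusted p = 1.88e-04). MUC5AC, HSPG2 and IL34 had log2 fold changes of -3.08, -1.97 and -1.85 without sgRosa replicate 2 (adjusted p = 1.95e-04, 1.20e-04 and 3.56e-04).

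Of the 12 largest falls with a mean of at least 5 TPM, chosen from 2680 genes whose groups did not overlap, the median length was 9044 nt. They held the RNA processing factor SRRM2 (-1.74 ± 0.21, adjusted p = 5.18e-05), the H3K4 methyltransferase KMT2D (-1.78 ± 0.24, adjusted p = 7.91e-05), the acetyltransferase EP300 (-1.59 ± 0.20, adjusted p = 6.69e-05) and the remodeller ATPase SRCAP (-1.63 ± 0.21, adjusted p = 6.71e-05), along with the microtubule protein MAP1B (-1.80 ± 0.20, adjusted p = 3.84e-05) and the collagen chain COL1A1 (-1.58 ± 0.36, adjusted p = 0.00246). SRRM2 was at 145, 148, 146 and 65.4 TPM in sgRosa and 25.2, 43.3, 39.6 and 35 TPM in sgRUVBL1. In KMT2D, SRRM2, SRCAP and EP300, sgRosa replicate 4 lay between the knockout libraries and the other controls. For KMT2D it was at 6.15 TPM, against 16.9 to 18.5 TPM in the other controls. COL1A1 was at 50.5 TPM in sgRosa replicate 2, against 9.62 to 16.2 TPM in the others, and fell also without it (-1.11, adjusted p = 0.00228). All 11 with a known length fell after the correction as well. NPIPA3 belongs to a family of near-identical copies, among which reads may be split, and 1 row was named "Lewis", which is no single gene symbol. SRRM2 had a log2 fold change of -1.64 without sgRosa replicate 2 (adjusted p = 1.53e-04).

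The largest rises were of short transcripts, with a median length of 913 nt. LEMD1, a cancer-testis antigen, was at 2.73, 0.322, 5.95 and 5.92 TPM in sgRosa and 13.8, 10.3, 10.0 and 12.1 TPM in sgRUVBL1. All knockout libraries were above all controls (log2 fold change 1.67 ± 0.37, adjusted p = 0.00213), and sgRosa replicate 2 held the lowest level. Without it the difference was 1.14 (adjusted p = 9.27e-04). TFF2, a trefoil peptide secreted with gastric mucus, was at 81.9, 55.7, 112 and 120.1 TPM in sgRosa and 227, 154, 174 and 161 TPM in sgRUVBL1 and rose (0.99 ± 0.18, adjusted p = 6.14e-04). FXYD2, a regulator of the sodium pump, was at 85.1, 75, 95.1 and 74.2 TPM in sgRosa and 183, 142, 178 and 149 TPM in sgRUVBL1, and it too rose (0.97 ± 0.13, adjusted p = 7.82e-05). TFF2 and FXYD2 had log2 fold changes of 0.77 and 0.93 without sgRosa replicate 2 (adjusted p = 7.04e-04 and 2.51e-04).

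Other large rises were of the growth factor PGF (1.1 ± 0.14, adjusted p = 6.37e-05), the AP-1 family factor BATF (0.95 ± 0.15, adjusted p = 2.29e-04), the serpin SERPINI1 (1.14 ± 0.19, adjusted p = 3.68e-04) and the guanylate cyclase activator GUCA1B (1.36 ± 0.22, adjusted p = 2.83e-04). The remaining members given here were HIST3H2A and HIST1H2BO (replication-dependent histones), C6orf226 and LOC730268. Histone genes have near-identical copies and lack a poly(A) tail as a rule, so their levels in poly(A)-selected libraries are uncertain. All 12 rises were kept without sgRosa replicate 2, and all 11 with a known length after the correction.

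**Figure D3:**
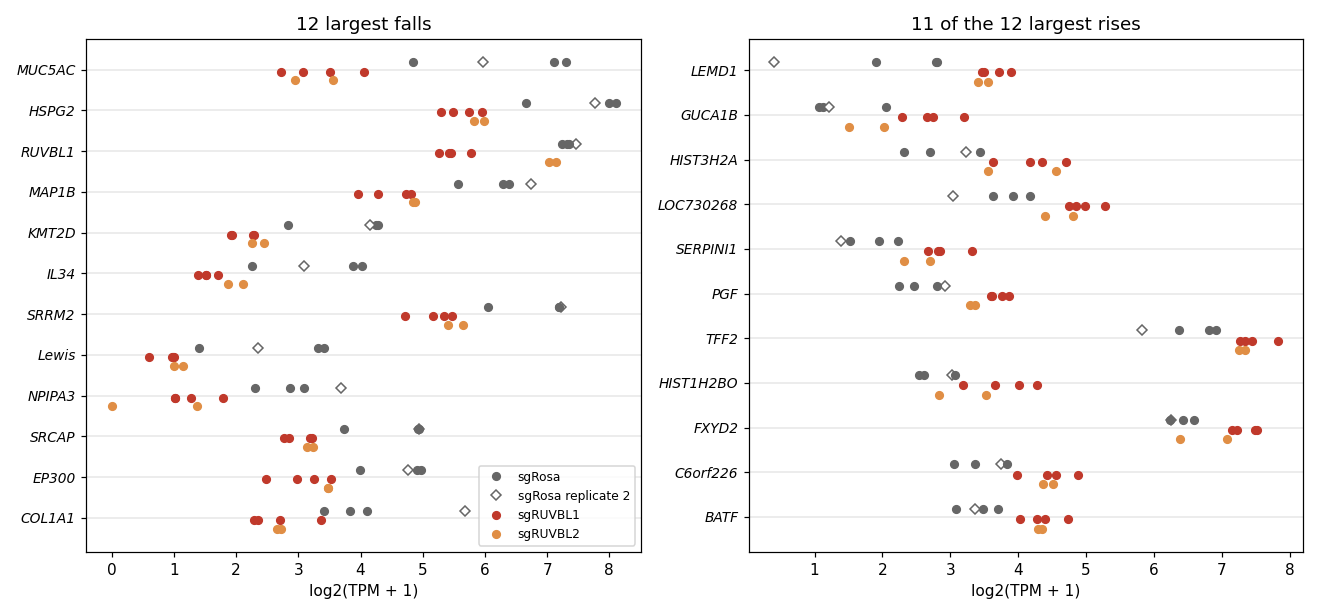
log2(TPM + 1) in each sgRosa, sgRUVBL1 and sgRUVBL2 library for the 12 largest falls (left) and 11 of the 12 largest rises (right), with an open diamond for sgRosa replicate 2. Within every gene shown the sgRUVBL1 and sgRosa points do not overlap, which the choice of genes required.

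The gene lists were set against all genes, of which 37.3% fell and 6.54% rose with a median log2 fold change of -0.20, or of 0.01 after the length and GC correction. As deposited and with all controls, the share that fell was above that of all genes for PIKK kinases, DNA replication, mitosis and NRF2-type antioxidants. The integrated stress response, epithelial transcription factors, MAPK feedback and AP-1, the unfolded protein response and the mesenchymal list were above it too. So were glycolysis and hypoxia, ribosome biogenesis, heat shock and, at 38.7%, the INO80, SRCAP and TIP60 complexes. The share was below that of all genes for the other lists, among them the ribosomal proteins, R2TP, interferon-stimulated genes and p53 targets. These are descriptions by count and median with no test of a list. For the counts below, 34.2% of all genes fell and 6.32% rose without sgRosa replicate 2, and 15.1% and 17% after the correction. A count near these shares is not a feature of its list.

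**Figure D4:**
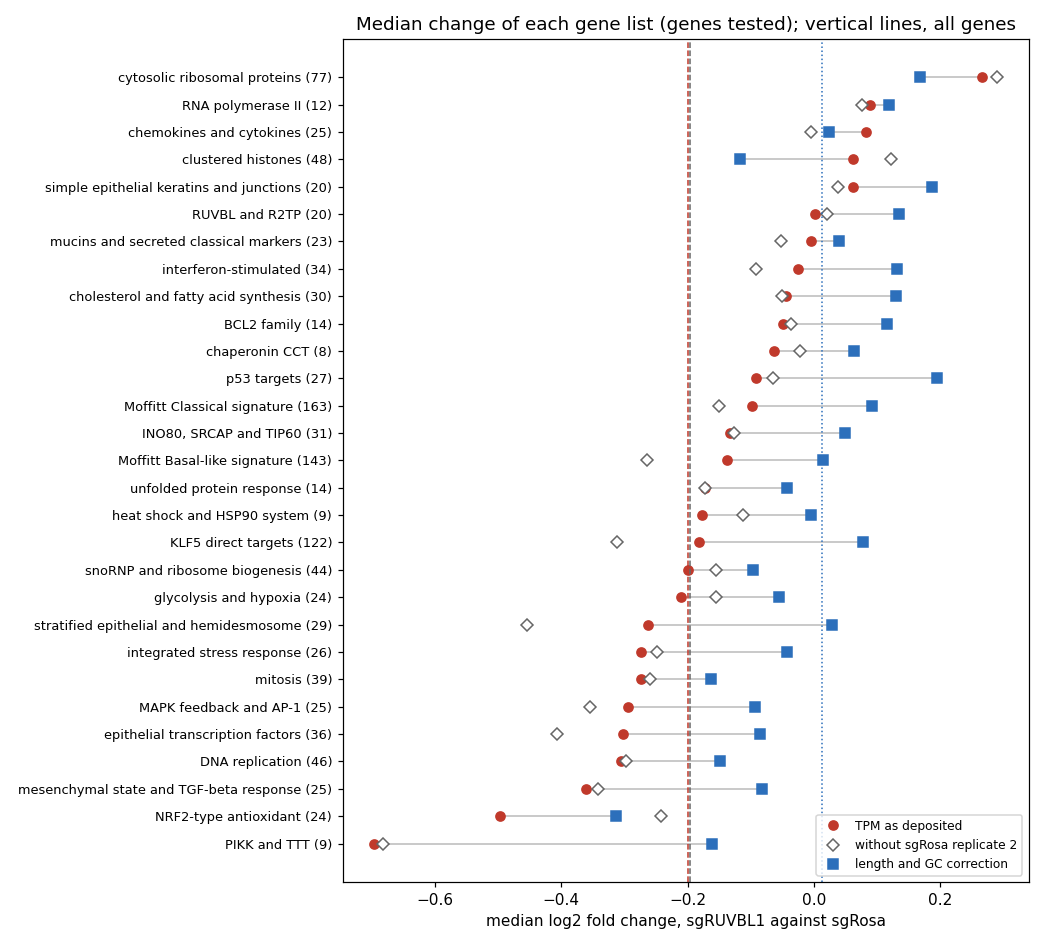
Median log2 fold change (x axis) of each gene list, sgRUVBL1 against sgRosa, for TPM as deposited (circles), without sgRosa replicate 2 (diamonds) and after the length and GC correction (squares), with the number of genes tested in brackets and vertical lines at the medians of all genes. The lowest median as deposited is -0.70 for the PIKK and TTT genes, and the highest is 0.27 for the ribosomal proteins.

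RUVBL1's direct partners were compared next. The list RUVBL and R2TP held 20 tested genes, of which 6 fell and 4 rose (median log2 fold change 0.001), against 4 lower and 4 higher (0.02) without sgRosa replicate 2 and 3 lower and 5 higher (0.14) after the length and GC correction. The shares were thus 30% lower and 20% higher, against 37.3% and 6.54% of all genes. After the correction, 15.1% of all genes fell and 17% rose. PDRG1, a small prefoldin-like subunit of the extended R2TP complex (GRCh38 chromosome 20, 31944337-31952046, minus strand), was at 39.9, 49.3, 42.8 and 43.9 TPM in sgRosa and 101, 82.2, 79.3 and 75.1 TPM in sgRUVBL1. No library of one group reached the other, and PDRG1 rose (0.92 ± 0.10, adjusted p = 3.02e-05), also after the correction, with 1.03 (adjusted p = 2.01e-05). ZNHIT3, a snoRNP assembly factor, was at 89.8, 82.6, 64.1 and 72.1 TPM in sgRosa and 120.3, 120.3, 109.7 and 104 TPM in sgRUVBL1, all knockout libraries above all controls (0.56 ± 0.10, adjusted p = 4.18e-04). NUFIP1, another assembly factor, fell (-0.51 ± 0.17, adjusted p = 0.022), but not without sgRosa replicate 2, with -0.44 (adjusted p = 0.0594). RPAP3 (0.01 ± 0.09, adjusted p = 0.907) did not pass, and PIH1D1 (-0.22 ± 0.08, adjusted p = 0.0366) passed only with sgRosa replicate 2. PDRG1 and ZNHIT3 had log2 fold changes of 0.97 and 0.60 without sgRosa replicate 2 (adjusted p = 4.47e-05 and 5.90e-04). PIH1D1 did not pass without sgRosa replicate 2 (-0.19, adjusted p = 0.0902). NUFIP1 and PIH1D1 did not pass after the correction (-0.38 and -0.18, adjusted p = 0.122 and 0.0501).

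The PIKK kinases are clients of R2TP, which works on them with the TTT proteins as adaptor. Of the 9 PIKK and TTT genes, 7 fell (median log2 fold change -0.70), against 6 lower (-0.68) without sgRosa replicate 2 and 4 lower (-0.16) after the length and GC correction. MTOR, the kinase of cell growth control, was at 39.7, 38.9, 39.9 and 31.2 TPM in sgRosa and 12.9, 27.5, 16.3 and 24.9 TPM in sgRUVBL1. The knockout libraries lay below the controls (-0.90 ± 0.17, adjusted p = 7.20e-04), and after the correction the difference was -0.40 (adjusted p = 0.00827). ATM, the kinase of the DNA break response, was at 14.6, 13, 13.3 and 13.9 TPM in sgRosa and 4.61, 9.58, 5.28 and 8.46 TPM in sgRUVBL1 (-0.93 ± 0.19, adjusted p = 0.00112, corrected -0.47, adjusted p = 0.0138). PRKDC (DNA-PKcs) was at 74.6 to 82.5 TPM in sgRosa and 28.7 to 57.6 TPM in sgRUVBL1 (-0.87 ± 0.16, adjusted p = 6.78e-04), and TRRAP, the scaffold of acetyltransferase complexes, fell too (-1.06 ± 0.17, adjusted p = 2.62e-04). TTI1, a TTT subunit, fell (-0.38 ± 0.10, adjusted p = 0.00666). TTI2 did not pass (-0.06 ± 0.10, adjusted p = 0.658), nor did TELO2 (-0.28 ± 0.13, adjusted p = 0.0959). The median transcript length of the list was 8721 nt, and after the correction ATR was at 0.02 (adjusted p = 0.884) and SMG1, a kinase of nonsense-mediated decay, at -0.16 (adjusted p = 0.219). In 4 of the genes (ATM, PRKDC, MTOR and TRRAP) the fall was called after the correction too. MTOR, ATM and PRKDC had log2 fold changes of -0.88, -0.95 and -0.86 without sgRosa replicate 2 (adjusted p = 0.00198, 0.00224 and 0.00172). TTI1 did not pass after the correction (-0.14, adjusted p = 0.152).

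Of 31 tested members of the INO80, SRCAP and TIP60 complexes, 12 fell and 1 rose (median log2 fold change -0.13), against 11 lower and 1 higher (-0.13) without sgRosa replicate 2 and 5 lower and 4 higher (0.05) after the length and GC correction. The 38.7% that fell was close to the 37.3% of all genes, and 3.23% rose, against 6.54%. Of all genes, 34.2% fell without sgRosa replicate 2. After the correction, 15.1% of all genes fell and 17% rose. EP400, the ATPase of the TIP60/p400 complex, was at 18.1, 18.1, 18.4 and 8.22 TPM in sgRosa and 5.91, 6.98, 7.12 and 5.4 TPM in sgRUVBL1 (-1.13 ± 0.19, adjusted p = 3.20e-04). sgRosa replicate 4 lay nearer to the knockout libraries than to the other controls, and the corrected difference was -0.54 (adjusted p = 0.0138). ZNHIT1, a small SRCAP subunit, rose (0.27 ± 0.09, adjusted p = 0.024). Among genes of RNA polymerase II, POLR2A, the largest subunit, was at 68, 61.6, 63.4 and 19.9 TPM in sgRosa and 18.9, 17.7, 22.2 and 13.2 TPM in sgRUVBL1. Here sgRosa replicate 4 was inside the range of the knockout libraries and the other controls were far above it, and POLR2A fell (-1.39 ± 0.28, adjusted p = 0.00108, corrected -0.94, adjusted p = 0.00991). POLR2L, a small shared subunit, rose (0.55 ± 0.08, adjusted p = 1.60e-04, corrected 0.53, adjusted p = 2.01e-05), as did POLR2K (0.34 ± 0.08, adjusted p = 0.00318), and POLR2D fell (-0.21 ± 0.07, adjusted p = 0.0298). Of the 12 polymerase genes, 2 fell and 4 rose (median log2 fold change 0.09), against 1 lower and 5 higher (0.08) without sgRosa replicate 2 and 1 lower and 5 higher (0.12) after the length and GC correction. EP400 and POLR2A had log2 fold changes of -1.04 and -1.28 without sgRosa replicate 2 (adjusted p = 0.00108 and 0.00351). POLR2D did not pass without sgRosa replicate 2 (-0.19, adjusted p = 0.0705). POLR2K and POLR2D did not pass after the correction (0.14 and 0.09, adjusted p = 0.19 and 0.402).

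Of 77 cytosolic ribosomal protein genes, 69 rose (median log2 fold change 0.27), against 72 higher (0.29) without sgRosa replicate 2 and 38 higher (0.17) after the length and GC correction. RPL31 was at 1703, 2282, 1870 and 2388 TPM in sgRosa and 3134, 2854, 2819 and 2809 TPM in sgRUVBL1, without overlap (0.51 ± 0.09, adjusted p = 3.96e-04), and FAU at 1115 to 1303 TPM in sgRosa and 1544 to 1884 TPM in sgRUVBL1 (0.49 ± 0.07, adjusted p = 1.56e-04). These are short, abundant transcripts, and their rise was called in fewer members after the correction. Of all genes, 15.1% then fell and 17% rose. With the same knockout RPL31 fell in AsPC-1 experiment 2 (-0.16, adjusted p = 0.0345), AsPC-1 experiment 3 (-0.29, adjusted p = 0.00846) and T3M-4 (-0.45, adjusted p = 4.37e-04). It did not pass in BxPC-3. FAU rose in both AsPC-1 experiments (0.31 and 0.24, adjusted p = 3.21e-04 and 0.00516) and did not pass in T3M-4 or BxPC-3. Of 44 genes of snoRNPs and ribosome biogenesis, 20 (45.5%) fell and 2 rose, against 37.3% and 6.54% of all genes. The median log2 fold change was -0.20, the same as for all genes. Without sgRosa replicate 2 it was 16 lower and 2 higher (-0.15), where 34.2% of all genes fell. After the length and GC correction it was 13 lower and 4 higher (-0.10). With the correction and without that library it was 6 lower and 6 higher (-0.055), where 13.9% and 16.2% of all genes were. NOP2, an rRNA methyltransferase, fell (-0.79 ± 0.11, adjusted p = 8.80e-05, corrected -0.59, adjusted p = 2.35e-04), as did POLR1A, the large subunit of RNA polymerase I (-0.86 ± 0.17, adjusted p = 0.00109). The snoRNP proteins NOP58 (0.39 ± 0.08, adjusted p = 8.76e-04) and NOP10 (0.31 ± 0.06, adjusted p = 7.48e-04) rose. RPL31 and FAU had log2 fold changes of 0.56 and 0.52 without sgRosa replicate 2 (adjusted p = 3.03e-04 and 2.56e-04). NOP10 did not pass after the correction (0.05, adjusted p = 0.512).

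Of 122 tested direct targets of KLF5 (a list the study chose in other lines), 39 fell and 6 rose (median log2 fold change -0.18), against 67 lower and 5 higher (-0.31) without sgRosa replicate 2 and 15 lower and 20 higher (0.08) after the length and GC correction. The count of falls thus rose from 39 to 67 when the library that resembles sgKLF5 was left out. With both the correction and that library out it was 34 lower and 16 higher (median -0.07). With all controls, 32% of the targets fell, below the 37.3% of all genes, and 4.92% rose, against 6.54%. After the correction, the shares of targets were not above those of all genes, 15.1% lower and 17% higher. Only without sgRosa replicate 2 was the share that fell above that of all genes, 34.2% as deposited and 13.9% corrected. SERPINB5 (GRCh38 chromosome 18, 63476958-63505085, plus strand) was at 192, 59.8, 179 and 169 TPM in sgRosa and 106, 126, 114 and 138 TPM in sgRUVBL1. The other controls lay above all knockout libraries, and sgRosa replicate 2 lay below them. SERPINB5 did not pass with all controls (-0.18 ± 0.25, adjusted p = 0.579), but fell without sgRosa replicate 2 (-0.57, adjusted p = 2.70e-04). That library was set apart by its likeness to sgKLF5 and its low SERPINB5. Leaving it out raises the control mean of every gene that is low in it, by construction. For SERPINB5 and the KLF5 targets, the calls without it are thus no separate evidence of a fall. TNS4, a focal adhesion protein, was at 104 to 261 TPM in sgRosa and 44 to 73.4 TPM in sgRUVBL1, without overlap (-1.36 ± 0.25, adjusted p = 5.23e-04). MUC16, a membrane mucin, fell (-1.39 ± 0.19, adjusted p = 8.13e-05), while KLK11, a kallikrein protease (0.69 ± 0.20, adjusted p = 0.0121), and FOLR1, the folate receptor (0.84 ± 0.27, adjusted p = 0.0197), rose. TNS4, KLK11 and FOLR1 had log2 fold changes of -1.59, 0.40 and 0.47 without sgRosa replicate 2 (adjusted p = 1.89e-04, 0.0132 and 0.0375).

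Of 29 stratified epithelial and hemidesmosome genes, 31% were lower, below the 37.3% of all genes. Without sgRosa replicate 2 this order turned, with 18 of the 29 lower against 34.2% of all genes. Of the 29, 9 fell and 1 rose (median log2 fold change -0.26), against 18 lower and 1 higher (-0.45) without sgRosa replicate 2 and 3 lower and 1 higher (0.03) after the length and GC correction. ITGB4, the hemidesmosome integrin, was at 253, 81.9, 263 and 164 TPM in sgRosa and 78.8, 113, 115 and 112 TPM in sgRUVBL1, and fell (-0.73 ± 0.25, adjusted p = 0.0266). The low level in sgRosa replicate 2 overlapped with the knockout libraries, and without it the difference was -1.09 (adjusted p = 1.53e-04). PLEC, the plakin that links it to keratin, fell as well (-1.20 ± 0.19, adjusted p = 2.65e-04). KRT81, a hair keratin, rose (0.63 ± 0.21, adjusted p = 0.0204). KRT81 had a log2 fold change of 0.33 without sgRosa replicate 2 (adjusted p = 0.0225). ITGB4 did not pass after the correction (-0.25, adjusted p = 0.466).

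Of 36 epithelial transcription factors, 19 fell and 2 rose (median log2 fold change -0.30), against 22 lower and 2 higher (-0.41) without sgRosa replicate 2 and 11 lower and 4 higher (-0.09) after the length and GC correction. ONECUT2 was at 16.1, 18.8, 15.2 and 13.3 TPM in sgRosa and 5.07, 10.3, 6.23 and 8.69 TPM in sgRUVBL1, the knockout libraries below every control (-1.01 ± 0.16, adjusted p = 2.73e-04), and ESRP2, a splicing regulator of epithelial cells, fell (-0.91 ± 0.10, adjusted p = 3.02e-05). OVOL1, a zinc finger factor of epithelia, rose (0.58 ± 0.15, adjusted p = 0.00607). ELF3, an ETS factor of epithelia, rose (0.19 ± 0.06, adjusted p = 0.0223, corrected 0.41, adjusted p = 9.76e-05). HNF4A, a factor of the classical state, was at 13, 7.8, 13.6 and 8.96 TPM in sgRosa and 6.55, 8.05, 7.46 and 8.49 TPM in sgRUVBL1, with overlap between the groups (-0.43 ± 0.15, adjusted p = 0.0269), and the corrected value was -0.07 (adjusted p = 0.696). EHF did not pass (-0.16 ± 0.10, adjusted p = 0.188), and TP63, at 0.516 to 1.01 TPM in sgRosa and 0.392 to 0.738 TPM in sgRUVBL1, was too low to be tested. Of 20 simple epithelial keratin and junction genes, 4 fell and 2 rose (median log2 fold change 0.06), against 4 lower and 2 higher (0.04) without sgRosa replicate 2 and 8 higher (0.19) after the length and GC correction. The claudins CLDN3 (0.51 ± 0.08, adjusted p = 2.28e-04) and CLDN4 (0.34 ± 0.06, adjusted p = 2.62e-04) rose, CGN (cingulin) and CLDN1 fell (-0.60 ± 0.10, adjusted p = 3.60e-04 and -0.44 ± 0.11, adjusted p = 0.00378), and EPCAM (0.11 ± 0.06, adjusted p = 0.151), KRT7 (0.01 ± 0.10, adjusted p = 0.921) and KRT19 (0.19 ± 0.11, adjusted p = 0.182) did not pass. ONECUT2 and HNF4A had log2 fold changes of -0.93 and -0.56 without sgRosa replicate 2 (adjusted p = 8.91e-04 and 0.00477). CGN and CLDN1 did not pass after the correction (-0.20 and -0.28, adjusted p = 0.054 and 0.0605).

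The published PDAC subtype signatures had 34.3% (basal-like) and 26.4% (classical) of their genes lower and 8.39% and 6.75% higher, against 37.3% and 6.54% of all genes. Without sgRosa replicate 2, the basal-like share that fell was above the 34.2% of all genes, and the classical share stayed below it. Of the 143 basal-like genes of the Moffitt signature, 49 fell and 12 rose (median log2 fold change -0.14), against 64 lower and 12 higher (-0.26) without sgRosa replicate 2 and 25 lower and 22 higher (0.01) after the length and GC correction. Of the 163 classical genes, 43 fell and 11 rose (median log2 fold change -0.10), against 51 lower and 11 higher (-0.15) without sgRosa replicate 2 and 14 lower and 30 higher (0.09) after the length and GC correction. MUC1, a membrane mucin that both the classical and the mucin lists hold, was at 494, 254, 551 and 167 TPM in sgRosa and 178, 60.8, 186 and 58.4 TPM in sgRUVBL1 and fell (-1.65 ± 0.40, adjusted p = 0.00363), with the lowest control, sgRosa replicate 4, below sgRUVBL1 replicates 1 and 3. TOX3, an HMG-box factor, was at 8.95 to 14.7 TPM in sgRosa and 4.08 to 6.06 TPM in sgRUVBL1 (-1.07 ± 0.14, adjusted p = 6.69e-05). At low levels, PRR15L of the classical list (0.74 ± 0.19, adjusted p = 0.00598) and SYCE3 of the basal-like list (1.26 ± 0.43, adjusted p = 0.0255) rose. Of 23 mucins and secreted classical markers, 5 fell and 3 rose (median log2 fold change -0.004), against 6 lower and 3 higher (-0.05) without sgRosa replicate 2 and 4 lower and 2 higher (0.04) after the length and GC correction. MUC1 and TOX3 had log2 fold changes of -1.77 and -0.96 without sgRosa replicate 2 (adjusted p = 0.00437 and 1.73e-04). SYCE3 did not pass after the correction (1.02, adjusted p = 0.0729).

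Of 46 replication genes, 31 fell and 2 rose (median log2 fold change -0.30), against 26 lower and 2 higher (-0.30) without sgRosa replicate 2 and 14 lower and 5 higher (-0.15) after the length and GC correction. RRM2, the small subunit of ribonucleotide reductase, was at 173, 167, 174 and 179 TPM in sgRosa and 77, 77.4, 102 and 111.1 TPM in sgRUVBL1. All knockout libraries were below all controls (-0.93 ± 0.10, adjusted p = 3.02e-05), and this held after the correction, with -0.78 (adjusted p = 6.69e-05). POLE, the leading strand polymerase, fell (-0.71 ± 0.15, adjusted p = 0.00136), while FEN1, the flap endonuclease, and RPA2, a single-strand DNA binding subunit, rose (0.26 ± 0.05, adjusted p = 0.00137 and 0.36 ± 0.07, adjusted p = 7.14e-04). Of 39 mitosis genes, 21 fell (median log2 fold change -0.27), against 21 lower (-0.26) without sgRosa replicate 2 and 16 lower and 1 higher (-0.16) after the length and GC correction. With all controls 67.4% of the replication genes and 53.85% of the mitosis genes fell, against 37.3% of all genes. After the correction, 15.1% of all genes fell. PLK1, a mitotic kinase, was at 105, 104, 111.2 and 70.8 TPM in sgRosa and 45.4, 44.4, 60.7 and 47.7 TPM in sgRUVBL1 (-0.95 ± 0.12, adjusted p = 6.75e-05), and FOXM1, a transcription factor of mitotic genes, at 35.7 to 68.2 TPM in sgRosa and 19.7 to 29.6 TPM in sgRUVBL1 (-1.16 ± 0.17, adjusted p = 1.12e-04). MKI67, the Ki-67 proliferation marker with a long transcript, was at 147, 136, 139 and 130.2 TPM in sgRosa and 42, 112, 62.2 and 100.4 TPM in sgRUVBL1 and fell (-0.89 ± 0.21, adjusted p = 0.00288), and after the correction it was -0.35 (adjusted p = 0.0523). CDK1 did not pass (-0.14 ± 0.07, adjusted p = 0.129), and MYC fell (-0.40 ± 0.13, adjusted p = 0.0224), but not without sgRosa replicate 2, at -0.25 (adjusted p = 0.0698). RPA3 did not pass (0.24 ± 0.12, adjusted p = 0.0995). RRM2, PLK1, FOXM1 and MKI67 had log2 fold changes of -0.94, -0.92, -1.06 and -0.90 without sgRosa replicate 2 (adjusted p = 6.48e-05, 2.05e-04, 3.43e-04 and 0.00564). POLE and MYC did not pass after the correction (-0.20 and -0.15, adjusted p = 0.0714 and 0.38).

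Of 27 p53 targets, 5 fell and 2 rose (median log2 fold change -0.09), against 4 lower and 2 higher (-0.07) without sgRosa replicate 2 and 1 lower and 6 higher (0.20) after the length and GC correction. With all controls 18.5% of them fell and 7.41% rose, against 37.3% and 6.54% of all genes. CDKN1A (p21) did not pass (0.14 ± 0.12, adjusted p = 0.362). PMAIP1, the BH3-only protein NOXA, was at 44.6, 47.9, 41.9 and 48 TPM in sgRosa and 67.9, 65.7, 57.3 and 59.9 TPM in sgRUVBL1 and rose (0.45 ± 0.08, adjusted p = 4.03e-04), whereas DDB2, a nucleotide excision repair factor, fell (-0.41 ± 0.07, adjusted p = 5.58e-04), as did the oxidoreductase TP53I3 (-0.42 ± 0.09, adjusted p = 0.002). TRIAP1, an inhibitor of apoptosis, rose (0.20 ± 0.08, adjusted p = 0.0466), but not without sgRosa replicate 2, at 0.17 (adjusted p = 0.114). In the BCL2 family, 14 tested, 2 fell and 2 rose (median log2 fold change -0.05), against 2 lower and 2 higher (-0.04) without sgRosa replicate 2 and 1 lower and 5 higher (0.12) after the length and GC correction. BCL2L2, an anti-apoptotic member, fell (-0.50 ± 0.08, adjusted p = 2.18e-04), MCL1 fell (-0.27 ± 0.06, adjusted p = 0.00179), and BAD, a pro-apoptotic member, rose (0.32 ± 0.09, adjusted p = 0.00955). PMAIP1 had a log2 fold change of 0.47 without sgRosa replicate 2 (adjusted p = 6.69e-04). TP53I3, TRIAP1 and MCL1 did not pass after the correction (-0.28, 0.13 and -0.04, adjusted p = 0.0516, 0.201 and 0.616).

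Of 24 NRF2-type antioxidant genes, 14 fell (median log2 fold change -0.50), against 12 lower and 1 higher (-0.24) without sgRosa replicate 2 and 10 lower (-0.31) after the length and GC correction. ME1, malic enzyme, was at 17.8, 34, 19.4 and 14.4 TPM in sgRosa and 10.3, 7.17, 10.4 and 8.2 TPM in sgRUVBL1, and AKR1C2, an aldo-keto reductase, at 49, 105, 51.5 and 39.5 TPM in sgRosa and 31.1, 28.6, 24.2 and 27.7 TPM in sgRUVBL1. Both were highest in sgRosa replicate 2, and both fell without it as well, by log2 fold changes of -0.86 (adjusted p = 2.27e-04) and -0.72 (adjusted p = 2.37e-04). Of 26 genes of the integrated stress response, 14 fell (median log2 fold change -0.27), against 11 lower (-0.25) without sgRosa replicate 2 and 5 lower and 3 higher (-0.04) after the length and GC correction. PSAT1, of serine synthesis, was at 58.4 to 67.6 TPM in sgRosa and 31 to 41.1 TPM in sgRUVBL1, without overlap (-0.81 ± 0.09, adjusted p = 3.02e-05), and the amino acid transporter SLC7A1 fell too (-0.97 ± 0.14, adjusted p = 1.24e-04). Of 30 genes of cholesterol and fatty acid synthesis, 7 fell and 4 rose (median log2 fold change -0.04), against 7 lower and 2 higher (-0.05) without sgRosa replicate 2 and 3 lower and 10 higher (0.13) after the length and GC correction. FASN, fatty acid synthase, and FADS1, a desaturase, fell (-1.27 ± 0.17, adjusted p = 7.17e-05 and -0.68 ± 0.14, adjusted p = 0.00174), while SC5D (0.42 ± 0.10, adjusted p = 0.00331) and HMGCS1 (0.35 ± 0.11, adjusted p = 0.0147), of sterol synthesis, rose. PSAT1 had a log2 fold change of -0.81 without sgRosa replicate 2 (adjusted p = 8.99e-05).

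Of 14 genes of the unfolded protein response, 7 fell (median log2 fold change -0.17), against 6 lower (-0.17) without sgRosa replicate 2 and 2 lower (-0.04) after the length and GC correction. HYOU1, a chaperone of the endoplasmic reticulum, fell (-0.43 ± 0.08, adjusted p = 7.42e-04), and after the correction it was at -0.08 (adjusted p = 0.247). EDEM1, of protein degradation from the same compartment, fell too (-0.42 ± 0.11, adjusted p = 0.0071). Of 24 glycolysis and hypoxia genes, 11 fell and 2 rose (median log2 fold change -0.21), against 9 lower and 2 higher (-0.15) without sgRosa replicate 2 and 4 lower and 5 higher (-0.06) after the length and GC correction. With all controls 50% of the unfolded protein genes fell. For glycolysis and hypoxia 45.8% fell and 8.33% rose, against 37.3% and 6.54% of all genes. After the correction, the counts of these lists were close to the 15.1% and 17% of all genes, except that no unfolded protein gene rose. ENO2, an enolase, and EGLN3, an oxygen sensor, fell (-0.87 ± 0.12, adjusted p = 9.39e-05 and -0.60 ± 0.15, adjusted p = 0.00563), and ALDOC, an aldolase, and ADM, adrenomedullin, rose (0.63 ± 0.11, adjusted p = 4.23e-04 and 0.57 ± 0.21, adjusted p = 0.0386). Of 9 heat shock and HSP90 genes tested (of 19 listed, because the table gives several by a family name), 4 fell (median log2 fold change -0.18), against 2 lower (-0.11) without sgRosa replicate 2 and 1 lower (-0.005) after the length and GC correction. PTGES3, the HSP90 co-chaperone p23, was at 534, 537, 515 and 443 TPM in sgRosa and 439.9, 359, 399.6 and 354 TPM in sgRUVBL1 and fell (-0.39 ± 0.08, adjusted p = 0.00107), as did HSF1, the heat shock factor (-0.42 ± 0.14, adjusted p = 0.0233), though HSF1 not without sgRosa replicate 2, at -0.36 (adjusted p = 0.0644). Of the 8 subunits of the chaperonin CCT, 1 rose (median log2 fold change -0.06), against 1 higher (-0.02) without sgRosa replicate 2 and 2 higher (0.06) after the length and GC correction, with the rise in CCT8 (0.20 ± 0.06, adjusted p = 0.0145). EGLN3 and PTGES3 had log2 fold changes of -0.39 and -0.36 without sgRosa replicate 2 (adjusted p = 0.00866 and 0.00319). EDEM1 and HSF1 did not pass after the correction (-0.07 and -0.20, adjusted p = 0.613 and 0.147).

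Of 25 MAPK feedback and AP-1 genes, 14 fell and 2 rose (median log2 fold change -0.29), against 15 lower and 2 higher (-0.35) without sgRosa replicate 2 and 7 lower and 5 higher (-0.09) after the length and GC correction. With all controls 56% of them fell and 8% rose, against 37.3% and 6.54% of all genes. EGR1, an immediate-early factor, was at 26.1, 29.3, 23.4 and 12.2 TPM in sgRosa and 10.5, 9.24, 12.1 and 7.87 TPM in sgRUVBL1 (-1.07 ± 0.23, adjusted p = 0.00156), and SPRED2, an inhibitor of RAS signalling, fell (-0.96 ± 0.12, adjusted p = 6.39e-05), while the phosphatase DUSP6 (0.35 ± 0.08, adjusted p = 0.00205) and the AP-1 subunit JUNB (0.45 ± 0.09, adjusted p = 0.00124) rose. Of 25 mesenchymal and TGF-beta genes, 12 fell and 1 rose (median log2 fold change -0.36), against 12 lower and 2 higher (-0.34) without sgRosa replicate 2 and 8 lower and 3 higher (-0.08) after the length and GC correction. THBS1, thrombospondin, was at 178, 505, 181 and 132.5 TPM in sgRosa and 76.7, 97.3, 83 and 97.5 TPM in sgRUVBL1, all controls above all knockout libraries and sgRosa replicate 2 the highest (-1.28 ± 0.26, adjusted p = 0.00125). TAGLN, an actin-binding protein, rose (0.81 ± 0.28, adjusted p = 0.0307). EGR1, THBS1 and TAGLN had log2 fold changes of -0.93, -0.87 and 0.38 without sgRosa replicate 2 (adjusted p = 0.00512, 7.77e-05 and 0.038).

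Of 34 interferon-stimulated genes, 2 fell and 2 rose (median log2 fold change -0.03), against 3 lower and 2 higher (-0.09) without sgRosa replicate 2 and 1 lower and 3 higher (0.13) after the length and GC correction. With all controls 5.88% of them fell and 5.88% rose, against 37.3% and 6.54% of all genes. OAS3, a sensor of double-stranded RNA, was at 151, 115, 122 and 138 TPM in sgRosa and 43.2, 105, 68 and 96.7 TPM in sgRUVBL1 and fell (-0.81 ± 0.22, adjusted p = 0.00775). STAT2, which carries the interferon signal, fell as well (-0.40 ± 0.08, adjusted p = 0.0015), and the membrane proteins IFITM1 and IFITM2 rose (0.43 ± 0.14, adjusted p = 0.0188 and 0.33 ± 0.07, adjusted p = 0.0017). Of 25 chemokine and cytokine genes, 6 fell and 3 rose (median log2 fold change 0.08), against 6 lower and 4 higher (-0.005) without sgRosa replicate 2 and 2 lower and 2 higher (0.02) after the length and GC correction. CXCL6 was at 9.09, 60.5, 9.58 and 9.41 TPM in sgRosa and 7.13, 5.58, 8.52 and 5.11 TPM in sgRUVBL1, so the fall (-1.11 ± 0.41, adjusted p = 0.0351) came with a control that held 60.5 TPM, and without it was -0.47 (adjusted p = 0.0148). CSF1, a macrophage growth factor, fell (-0.58 ± 0.20, adjusted p = 0.0277), but not without that library, at -0.30 (adjusted p = 0.0631). LCN2, lipocalin 2, and SAA2, a serum amyloid A, rose (0.49 ± 0.17, adjusted p = 0.0264 and 0.78 ± 0.20, adjusted p = 0.00613). Of 48 clustered histone genes, 1 fell and 11 rose (median log2 fold change 0.06), against 1 lower and 10 higher (0.12) without sgRosa replicate 2 and 2 lower and 8 higher (-0.12) after the length and GC correction. HIST2H2BF fell (-0.63 ± 0.25, adjusted p = 0.0494) and HIST1H2AM rose (1.52 ± 0.30, adjusted p = 0.00108), with the doubt about histone copies given above. OAS3 and LCN2 had log2 fold changes of -0.87 and 0.25 without sgRosa replicate 2 (adjusted p = 0.00916 and 0.0472). HIST2H2BF did not pass without sgRosa replicate 2 (-0.57, adjusted p = 0.101). OAS3, STAT2, IFITM1, CSF1 and LCN2 did not pass after the correction (-0.37, -0.09, 0.30, -0.24 and 0.43, adjusted p = 0.16, 0.334, 0.103, 0.349 and 0.0724).

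Loss of the partner RUVBL2 was compared with loss of RUVBL1. In the 2 sgRUVBL2 libraries, RUVBL2 was at 67.4 and 48.5 TPM. Against the same sgRosa libraries, 1181 genes (9.26%) fell and 361 (2.83%) rose in sgRUVBL2, and without sgRosa replicate 2 these were 918 (7.20%) and 336 (2.64%). The excess of falls depended on the scaling, since the counts were 761 and 665 under median-of-ratios scaling and 937 and 870 after the length and GC correction. A fit of these 2 groups alone called 1 gene, and leaving out sgRUVBL2 replicate 1 left 78 calls. These counts rest on 2 libraries and share their controls with sgRUVBL1. Gene values and list counts are therefore given side by side, with no overlap of calls. MUC5AC was at 6.72 and 10.8 TPM in sgRUVBL2 (-3.05 ± 0.50, adjusted p = 0.00325), RRM2 at 114 and 114 TPM (-0.60 ± 0.12, adjusted p = 0.00633) and PDRG1 at 63.3 and 70.3 TPM (0.59 ± 0.12, adjusted p = 0.00606). KLF5 was at 138 and 139.9 TPM (-0.46 ± 0.10, adjusted p = 0.00951). Each of these genes passed, but other genes called in sgRUVBL1 did not. Among the 9 PIKK and TTT genes none passed in sgRUVBL2 (median log2 fold change -0.30). None of the 29 stratified epithelial and hemidesmosome genes did so either (median 0.009).

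The direct test of sgRUVBL1 against sgRUVBL2 called 3 genes, 2 lower (0.0157%) and 1 higher (0.00784%) in sgRUVBL1, while 1875 genes (14.7%) had an unadjusted p below 0.05. RUVBL1 was lower under its own guide (-1.61 ± 0.11, adjusted p = 2.57e-07), RUVBL2 was higher there (1.67 ± 0.11, adjusted p = 2.57e-07), and FOXJ1, a regulator of motile cilia, was lower (-1.07 ± 0.16, adjusted p = 0.0167), with 3.06, 3.02, 2.92 and 3.15 TPM in sgRUVBL1, 9.41 and 5.92 TPM in sgRUVBL2 and 2.2, 2.59, 2.5 and 1.8 TPM in sgRosa. The median half-width of the 95% interval of the difference was 0.304 on the log2 scale, and the whole interval lay within a log2 difference of 1 for 12148 genes (95.3%). Of the 34 interferon-stimulated genes, 12 rose in sgRUVBL2 (median 0.56) and 2 in sgRUVBL1 (median -0.03), and none of the 3 genes of the direct test is among them. IFITM1 was at 834 and 474 TPM in sgRUVBL2 replicates 1 and 2, against 449 to 560.5 TPM in sgRUVBL1.

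The libraries labelled for CDK1 and RPA3, genes that every dividing cell needs, served as a further reference. Against the pooled 4 libraries labelled sgCDK1 and sgRpa3, 6081 genes (47.7%) were lower and 987 (7.74%) higher in sgRUVBL1. This split turned with the scaling, to 2732 and 3190 under median-of-ratios scaling and 1941 and 2687 after the length and GC correction. CDK1 was not low in the libraries labelled sgCDK1, so this compares libraries by their labels. MUC5AC was at 127 and 160.1 TPM in sgCDK1 and 108 and 156 TPM in sgRpa3, far above every sgRUVBL1 library (log2 fold change -3.75 ± 0.41, adjusted p = 5.31e-06). RRM2, at 110.8 and 120.3 TPM in sgRpa3 and 192 and 189.5 TPM in sgCDK1, was lower in sgRUVBL1 than in their mean (-0.71 ± 0.10, adjusted p = 2.82e-05), while SERPINB5 did not pass (-0.27 ± 0.25, adjusted p = 0.367). The SE for SERPINB5 comes from a fit of all groups, so the low level in sgRosa replicate 2 widened it. MUC1 (-2.70 ± 0.40, adjusted p = 4.59e-05), HSPG2 (-2.62 ± 0.23, adjusted p = 2.39e-06), MUC16 (-2.47 ± 0.19, adjusted p = 1.22e-06) and KMT2D (-2.31 ± 0.24, adjusted p = 4.48e-06) were among the largest falls. The largest rises were TRIM69, a ubiquitin ligase (1.38 ± 0.31, adjusted p = 0.00142), ADAM32, of the metalloprotease family (1.16 ± 0.23, adjusted p = 5.72e-04), the histone genes HIST3H2A and HIST1H2BO, and CBWD3, which has near-identical copies (1.15 ± 0.39, adjusted p = 0.0183). Of the 122 KLF5 direct targets, 75 were lower and 0 higher in sgRUVBL1, and 23 were lower and 14 higher after the correction. The means of this comparison hold no sgRosa library, but its SE takes in their spread.

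Against the 3 sgKLF5 libraries, 2635 genes (20.7%) were lower and 1307 (10.3%) higher in sgRUVBL1, against 1945 and 1993 under median-of-ratios scaling and 2316 and 2303 after the length and GC correction. SERPINB5 was at 57.5, 69.3 and 66 TPM in sgKLF5 and higher in every sgRUVBL1 library (0.90 ± 0.27, adjusted p = 0.0183). MUC5AC, in contrast, was at 14.7, 9.88 and 13.4 TPM in sgKLF5, near its level in sgRUVBL1 (-0.41 ± 0.44, adjusted p = 0.513). KLF5 itself was at 131.5, 139 and 162 TPM there, a difference to sgRUVBL1 of -0.15 ± 0.09, adjusted p = 0.211. Of the KLF5 direct targets, 2 were lower and 71 higher in sgRUVBL1 than in sgKLF5, and 2 and 80 after the correction. Most of the targets that differed were at a higher level under RUVBL1 knockout than under KLF5 knockout.

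The same knockout had been made in other PDAC lines, namely AsPC-1 (2 experiments), T3M-4 and BxPC-3, with their own sgRosa controls, so that these values are independent of the CFPAC-1 controls. Of the genes that fell in CFPAC-1 and were tested there, the share that also fell was 40.9% against 25.8% of all genes tested in AsPC-1 experiment 2, 20.7% against 15.2% in AsPC-1 experiment 3, 17% against 14.6% in T3M-4 and 12.4% against 7.67% in BxPC-3. The share of them that rose instead was 12.5% against 30.0% of all genes there, 23.1% against 36.6%, 38.7% against 45.9% and 1.11% against 8.29% in the same order, so in AsPC-1 experiment 3 and T3M-4 more of these genes rose than fell. For the genes that rose, the shares were 70.4% against 30.0%, 60.3% against 36.6%, 52.1% against 45.9% and 34.1% against 8.29% in the same order, and 7.46%, 11.4%, 18.2% and 2.87% fell instead. With the CFPAC-1 calls made without sgRosa replicate 2, the shares in the same direction were 42.5%, 21.5%, 16.5% and 12.7% for falls and 70.9%, 59.4%, 51.2% and 33.7% for rises. After the correction in every line, the shares for falls were 63.7% against 34.5%, 48.3% against 28.1%, 48.2% against 32.2% and 36.3% against 14%, and 10.2%, 9.42%, 14.7% and 1.14% rose instead. Called in the same direction in all 4 CFPAC-1 fits (with and without the correction and sgRosa replicate 2) and in all 4 other experiments were 9.2% of the 1435 genes lower in all those CFPAC-1 fits and 26.9% of the 565 higher, against 2.49% and 4.07% of all genes tested in CFPAC-1. With the other experiments corrected too, these shares were 22.3% and 25.8%, against 6.41% and 5.5%. As deposited, 595 of the 1435 lower genes (41.5%) and 93 of the 565 higher (16.5%) were called in the same direction in no other experiment. Among the genes called in every experiment, the lower ones held RUVBL1, RRM2 and PLK1, and the higher ones LEMD1, GUCA1B, HIST3H2A, SERPINI1, PDRG1 and ZNHIT3. PDRG1, for example, was 1.58 in AsPC-1 experiment 2, 1.55 in AsPC-1 experiment 3, 0.48 in T3M-4 and 0.72 in BxPC-3, and RRM2 was -1.33, -1.32, -1.12 and -0.78 (log2 fold changes).

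**Figure D5:**
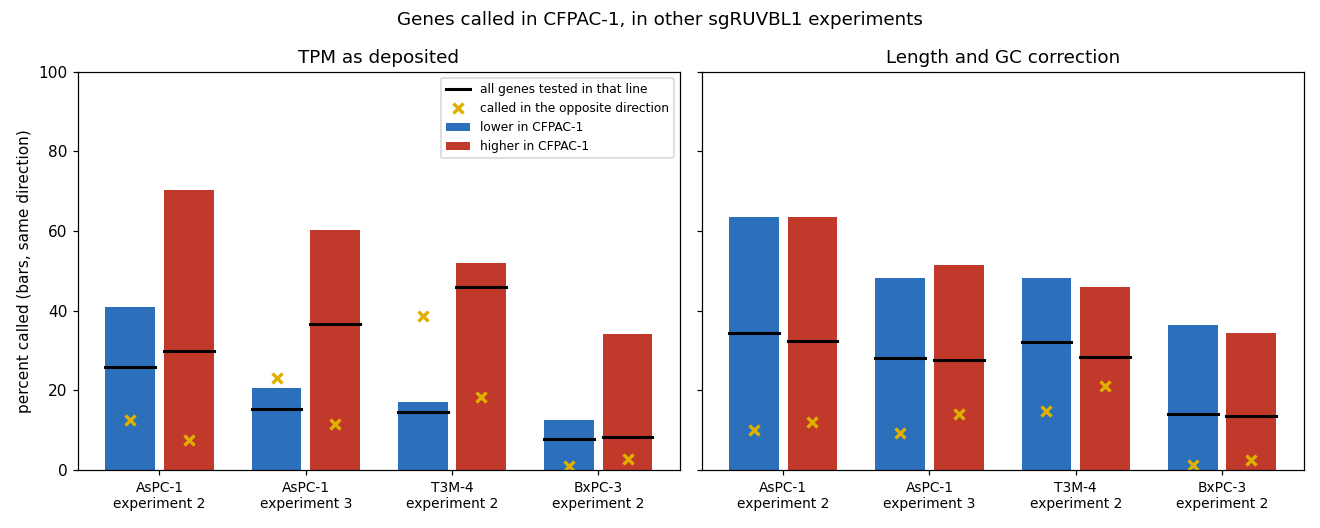
Percent (y axis, from 0) of the genes that fell or rose in CFPAC-1 that were called in the same direction in each other sgRUVBL1 experiment, as deposited (left) and after the length and GC correction (right), with a black line at the percent of all genes called in that direction there and a cross at the percent of the same genes called in the opposite direction. All bars are above their line, and for the falls as deposited the cross lies above the bar in AsPC-1 experiment 3 and T3M-4.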

How the data were processed

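Poly(A) RNA of CFPAC-1 cells was sequenced (single-end, 76 bp). The authors pseudoaligned reads to hg38 with kallisto and summed transcripts to genes with tximport, and the deposited values are TPM per gene. They name the removal of transcripts of low abundance beside their differential tests. The deposited values still hold genes at 0 in all libraries, such as INS. TPM holds no read counts, so the depth and the counting error are unknown. Genes whose mean in the 17 CFPAC-1 libraries reached 1 TPM (12748 of 19875 names) were fitted on log2(TPM + 1), which understates changes of low genes, with limma 3.58.1 in R 4.3.3 (1 mean per group over all 6 groups, intensity trend), and p-values were adjusted by Benjamini-Hochberg at 0.05. The fit was tested on simulated data. Transcript lengths and GC content came from GENCODE release 44, and the correction subtracted from each library a spline (4 degrees of freedom) on each of them. Single values were compared by exact permutation tests, two-sided. Named were the 12 largest rises and falls (groups not overlapping, called with and without sgRosa replicate 2, at least 5 TPM), fixed genes and the 2 largest rises and falls per list. Of the 12 largest rises, 1 is not reported here. The members and lists were chosen with earlier results of these data known. Alternatives were a pseudocount of 0.1, filters of none and 5 TPM, median-of-ratios scaling, a replicate block, library weights, only the groups compared and each library left out.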

Additional observations from a re-analysis of the deposited data

Results flagged for a closer look

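Of 270 groups of 4 libraries examined for 1 library far from the others by Dixon's criterion, 24 were marked, where chance marks about 5% of groups. The sgRosa libraries account for most. In sgRosa replicate 4, the transcripts of KMT2D (6.15 TPM), SRRM2 (65.4 TPM), SRCAP (12.4 TPM), EP400 (8.22 TPM), POLR2A (19.9 TPM), POLE (22.1 TPM) and MTOR (31.2 TPM) were far below the other controls, CDK1 (236 TPM) was above them, and its length slope of 0.002 was below theirs of 0.07 to 0.09.

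In sgRosa replicate 2, COL1A1 (50.5 TPM), THBS1 (505 TPM), CXCL6 (60.5 TPM), ADM (13.1 TPM) and EDEM1 (30.9 TPM) were high and the keratins KRT7 (782 TPM) and KRT19 (2855 TPM) low. In sgRosa replicate 3, GUCA1B (3.13 TPM) was high and RPAP3 (24.8 TPM) low.

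Among the knockout libraries, sgRUVBL1 replicate 1 stood apart in RPL31 (3134 TPM), SAA2 (1.48 TPM), ITGB4 (78.8 TPM) and TNS4 (44.05 TPM), replicate 3 in RUVBL2 (204 TPM) and replicate 4 in the row named Lewis (0.508 TPM).

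Between the knockouts, sgRUVBL1 minus sgRUVBL2 differed on the log2 scale by -1.07 for FOXJ1, by -1.61 for RUVBL1 and by 1.67 for RUVBL2. In T3M-4 the length slope of sgRUVBL1 minus sgRosa was 0.124, with all sgRUVBL1 libraries (0.051 to 0.077) above all sgRosa libraries (-0.195 to 0.016), the reverse of the order in CFPAC-1, and the difference between the lines was not tested.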

How the results depend on the processing

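The count of 5584 calls for sgRUVBL1 against sgRosa lay between 4438 (without sgRUVBL1 replicate 1) and 5835 (without sgRosa replicate 4) with 1 library left out, and was 3994 after the length and GC correction, but its split between lower and higher depends on the scaling (4750 and 834, or 2152 and 2440 under median-of-ratios scaling). The 1542 calls for sgRUVBL2 against sgRosa became 2382 with library weights and 1 with only the groups compared, and 78 to 2489 with 1 library left out (the lowest without sgRUVBL2 replicate 1, the highest without sgRosa replicate 4). The 3 calls between the knockouts became 5 with the correction, 16 with the correction and without sgRosa replicate 2, 10 with sgRosa replicates 1 and 3 as the only controls, and 2 to 21 with 1 library left out (21 without sgRUVBL2 replicate 2). Against the libraries labelled sgCDK1 and sgRpa3, 7068 calls became 4628 with the correction. The CFPAC-1 calls met again in other lines numbered 1055 lower and 1225 higher in AsPC-1 experiment 2, and 880 (AsPC-1 experiment 3), 675 (T3M-4) and 531 (BxPC-3) higher under median-of-ratios scaling, and 1085 and 1260, 1038, 952 and 703 in the same order with the correction.

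Same-numbered sgRosa and sgRUVBL1 libraries had residual correlations of -0.05, -0.034, 0.166 and 0.186, with no common sign. Same-numbered sgRUVBL1 and sgKLF5 libraries had 0.312, 0.363 and 0.039 for replicates 1 to 3. Crosswise, sgRUVBL1 replicate 1 had -0.364 with sgKLF5 replicate 2, and sgRUVBL1 replicate 2 had -0.326 with sgKLF5 replicate 1. Residuals are centred within each group, so positive same-numbered values pull the crosswise ones to negative values. Whether the numbers mark a shared batch was not tested. A replicate block gave 5749 calls (4898 lower and 851 higher) and changed the call of none of the named genes. Signs turned as follows, all short of the threshold. RUVBL2 was -0.031 with library weights, -0.035 with sgRosa replicates 1 and 3 as the only controls, and -0.059 (without sgRosa replicate 4) to 0.037 with 1 library left out, also negative at -0.046 without sgRUVBL1 replicate 3. RPAP3 was -0.042 (without sgRosa replicate 3) to 0.04, and -0.024 without sgRUVBL1 replicate 2. KRT7 was -0.057 with weights, -0.12 with sgRosa replicates 1 and 3, and -0.113 (without sgRosa replicate 2) to 0.07, and -0.031 without sgRUVBL1 replicate 3. CDKN1A was -0.026 with weights, -0.059 with sgRosa replicates 1 and 3, and -0.008 (without sgRosa replicate 2) to 0.237. Under median-of-ratios scaling, SERPINB5 was 0.038, EHF 0.056, CDK1 0.076, TTI2 0.144 and POLR2D 0.002. With the correction, and with it and without sgRosa replicate 2, EHF was 0.119 and 0.048, ATR 0.017 and 0.027, TELO2 0.054 and 0.099, TTI2 0.052 and 0.024, and POLR2D 0.093 and 0.104. In the last of these fits EDEM1 was 0.047 and CSF1 0.023. The causes were not tested.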

Other observations

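The 4 sgRUVBL1 libraries fell into pairs that the labels do not name, with replicates 1 and 3 alike (Pearson correlation across genes 0.991) and replicates 2 and 4 alike (0.992), against 0.983 to 0.985 between replicate 1 and either of replicates 2 and 4. MUC1 was at 178 and 186 TPM in replicates 1 and 3 and at 60.8 and 58.4 TPM in replicates 2 and 4. MKI67 was at 42.0 and 62.2 TPM in the first pair and 112 and 100.4 TPM in the second, and OAS3 at 43.2 and 68.0 TPM and at 105 and 96.7 TPM. RUVBL1 itself did not separate the pairs, with 37.2 and 53.7 TPM against 41.8 and 42.6 TPM. Residuals of replicates 1 and 3 correlated with those of sgKLF5 replicate 1 (0.312 and 0.249). Those of replicates 2 and 4 correlated with sgKLF5 replicate 2 (0.363 and 0.308). The values 0.312 and 0.363 are those given above, and the others are tied to them by the centring within groups. The cause of this split was not tested.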
